A study of Mus musculus with 38 samples.

Results

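The comparison set naive mouse embryonic stem (mES) cells without the lamin B receptor (LBRKO) directly against naive mES cells without all lamins (TKO), with LAP2B CUT&RUN as the readout. Its members were the 6 LAP2B libraries that the labels name as naive and as LBRKO or TKO, 3 of each, out of 36 libraries analysed here. CUT&RUN releases DNA that lies near an antibody's target, and LAP2B, which Tmpo encodes and which sits in the inner nuclear membrane, was the target. The other libraries were LAP2B in wild-type (WT) cells and in cells without lamins and receptor (QKO), the 4 genotypes as epiblast-like cells (EpiLCs), and LMNB1 and a non-specific immunoglobulin (IGG) in WT cells. Each library came from 200000 cells with 0.3 pg of yeast DNA as spike-in. WT, LBRKO and TKO mES cells shared the same 2i + LIF culture.

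The lamins Lmna, Lmnb1 and Lmnb2 form the filament meshwork under the inner nuclear membrane. LBR is a membrane protein of the same surface that binds heterochromatin through its nucleoplasmic domain. Both are known as tethers that hold heterochromatin at the periphery, and the comparison asks where LAP2B contacts differ when only one of the tethers is missing. WT cells are not part of the contrast, so neither side shares a control with the other.

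The LBRKO line was made from the WT line with Cas9, per the study's methods, with a guide over a SacI site in exon 2 of Lbr. The site is shown because its disruption defines the LBRKO group. In the GRCm39 reference, exon 2 of the canonical Lbr transcript (chromosome 1, 181665943 to 181666121) held 1 SacI site, inside the coding part, and the only 20-base target with an NGG motif that has this site at its bases 13 to 18 lay on the plus strand, opposite to the gene, at chr1:181666037-181666059. The SacI site and the NGG motif are in capitals.
Lbr exon 2: tcataataaaggGAGCTCccAGG

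Several limits bear on the groups as models. The TKO line and its WT littermate line came from another laboratory, the LBRKO line descends from that WT line, and the clone behind the LBRKO libraries was not identified here, so the loss of a tether cannot be told apart from other differences between these lines. Per the study's methods, the karyotype of the TKO line was abnormal, with trisomy 8 and partial loss of Y, and the WT line also held cells with trisomy 6 and 8 and without Y. The values hold no RNA or protein level, so neither the naive state nor the loss of Lbr or lamins could be checked from them. Each library sums over many nuclei, so fewer cells with a contact and a weaker contact per cell cannot be told apart.

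Recovered read totals over genes were 12608484 to 41198406 in the 6 libraries, and the median gene had 40 to 104 reads. The TKO libraries were the shallower of each pair with the same number, and the labels do not say whether the numbers pair the samples. The labels do not say whether replicates were separate cultures, so p-values measure the spread between these samples, which may be technical.

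The LBRKO libraries held more LAP2B signal relative to the spike-in. Mean signal over genes was 11.7, 12.9 and 15.5 spike-in scaled units in the LBRKO libraries and 5.37, 8.45 and 6.13 in the TKO libraries. Every LBRKO library lay above every TKO library, and the ratio of the means was 2.01. The log2 means were 3.73 ± 0.21 and 2.71 ± 0.34 (SD, n = 3 each), a difference of 1.02 (exact permutation test, two-sided, p = 0.1, the smallest p that 3 against 3 allows, adjusted p = 0.25 over 5 measures). Over TE families the difference was 0.52 and the groups overlapped (exact permutation p = 0.2). The difference over genes was 1.69 when reads were multiplied by the spike-in factor directly, which keeps the depth of each library. On the deposited scale WT libraries had a log2 mean of 3.66 ± 0.31, near that of LBRKO, and QKO libraries 2.15 ± 0.16. Naive WT IGG libraries had 1.19 ± 0.32, and the part of background in the LAP2B values of each genotype was not tested.

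On this spike-in scale almost all differences between genes had the same direction. Of 70381 genes tested, 38192 passed the test (54.3%, limma, adjusted p under 0.05), 37685 of them (53.5%) higher in LBRKO and 507 (0.72%) higher in TKO. The count higher in TKO fell to 271 without LBRKO replicate 1 and to 250 without TKO replicate 2. The median gene was 0.74 higher in LBRKO on the log2 scale. The distribution of signal between genes was therefore compared on a relative scale, on which each library is divided by its median gene.

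The share of LAP2B signal in lamina-rich genes did not separate the libraries of the genotypes. Genes were put into 4 equal classes by the WT LMNB1 signal per 1 kb bin, and the lamina contrast is the log2 ratio of mean LAP2B signal per bin in the highest class over the lowest. It was 1.05, 0.62 and 0.82 in the LBRKO libraries and 0.77, 0.47 and 0.81 in the TKO libraries. The groups overlapped, with means of 0.83 ± 0.21 and 0.69 ± 0.18 and a difference of 0.15 (exact permutation p = 0.4, adjusted p = 0.5). WT libraries had 1.68 ± 0.29 and QKO libraries -0.78 ± 0.10. The rank correlation of LAP2B with WT LMNB1 per bin across genes, which are not independent replicates, averaged 0.25 ± 0.09 in LBRKO and 0.28 ± 0.10 in TKO (difference -0.03, exact permutation p = 1). With WT IGG it averaged 0.53 ± 0.06 and 0.59 ± 0.02 (difference -0.06, exact permutation p = 0.2, adjusted p = 0.333).

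**Figure D1:**
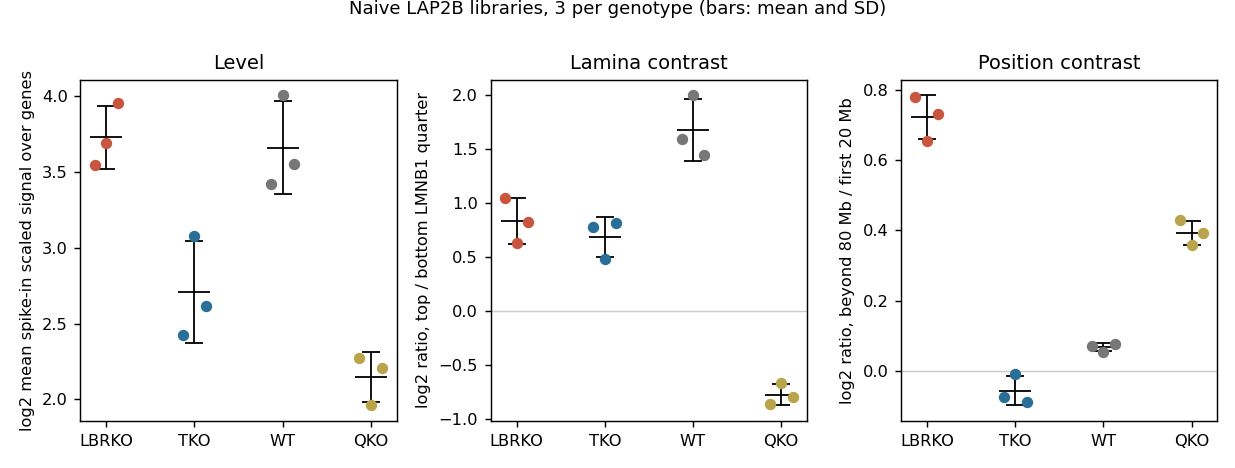
Level (log2 mean spike-in scaled signal over genes), lamina contrast (log2 ratio of the highest to the lowest LMNB1 class) and position contrast (log2 ratio of genes beyond 80 Mb to genes in the first 20 Mb of autosomes) in naive LAP2B libraries. Points are libraries, bars the mean and SD of 3. LBRKO and TKO overlap in lamina contrast but not in level or position contrast, where LBRKO averaged 0.72 and TKO -0.06.

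Many single genes differed between the genotypes in their relative signal. On the relative scale 26292 of 70381 genes (37.4%) passed the test, 15134 higher in LBRKO (21.5%) and 11158 higher in TKO (15.9%). Dividing each library by its mean gene in place of its median gene moved the median difference from 0.03 to -0.16 and turned the split to 10198 higher in LBRKO and 17522 higher in TKO, so directions below are relative to the median gene. edgeR on recovered reads gave 25905 calls. Groups did not overlap at 30848 genes (43.8%), with LBRKO above TKO at 17680 (25.1%) and TKO above LBRKO at 13168 (18.7%).

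LBRKO was more often higher in the middle of the LMNB1 range than at its ends. Genes in the class with least LMNB1 had a median difference (LBRKO minus TKO, log2, relative scale) of -0.06, the next class 0.14, the next 0.08 and the class with most LMNB1 -0.03. The share higher in LBRKO was 15.2%, 27.0%, 25.4% and 18.5% in that order, and the share higher in TKO was 17.7%, 13.6%, 15.9% and 16.2%. GC content had a like shape: the sixth of genes lowest in GC had a median of -0.15, the class at a median of 44.1% GC had 0.16, and the class highest in GC had -0.09. Genes of 30 to 100 kb were higher in LBRKO in 39.9% of cases and higher in TKO in 22.2%, against 10.5% and 8.47% for genes under 1 kb. Their median differences were 0.14 and -0.0007. The values of long genes sum over more bins, and the part of this in the shares was not tested.

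The clearest pattern was the position of a gene along its chromosome, a measure that was chosen after the values had been seen. Mouse chromosomes carry their centromere at the end from which positions are counted. Autosomal genes that start in the first 5 Mb had a median difference of -0.45, and 42.4% of the 1221 were higher in TKO against 4.26% higher in LBRKO. At 5 to 10 Mb the median was -0.51 and at 10 to 20 Mb -0.29. It was -0.19 at 20 to 40 Mb, 0.01 at 40 to 80 Mb, 0.22 at 80 to 120 Mb and 0.31 beyond 120 Mb. Of the 11334 genes beyond 120 Mb, 35.2% were higher in LBRKO and 5.89% higher in TKO. TKO signal was therefore relatively higher near the centromeric end and LBRKO signal in the distal arms.

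**Figure D2:**
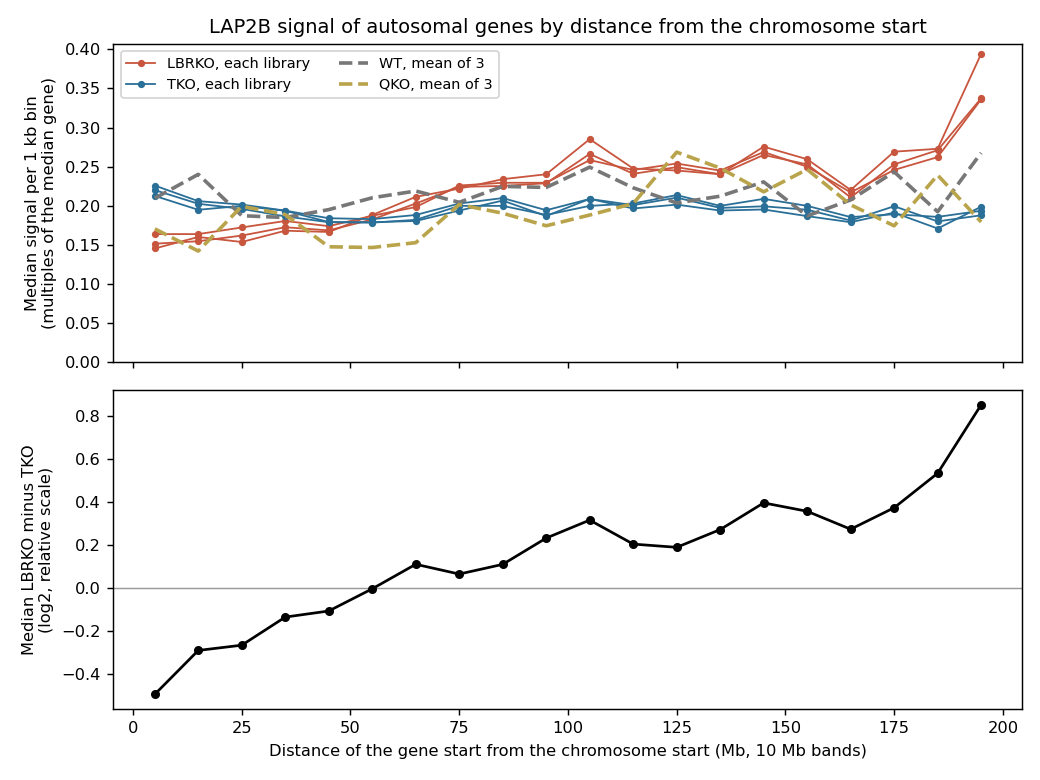
Top, median LAP2B signal per 1 kb bin of autosomal genes (multiples of the library's median gene) against distance from the chromosome start in 10 Mb bands, for each LBRKO and TKO library and as the mean of 3 for WT and QKO. Bottom, median LBRKO minus TKO difference (log2, relative scale) in the same bands, which passes from -0.49 in the first 10 Mb to 0.85 in the last band, where only 169 genes lie. In the first band all 3 LBRKO libraries are below all 3 TKO libraries, and beyond 80 Mb all are above.

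The same pattern held library by library. The position contrast is the log2 ratio of mean signal per bin in the 29690 autosomal genes beyond 80 Mb over that in the 7492 genes within 20 Mb. It was 0.78, 0.65 and 0.73 in the LBRKO libraries and -0.07, -0.01 and -0.09 in the TKO libraries. The groups did not overlap, and the difference of means was 0.78 (exact permutation p = 0.1, the smallest possible, adjusted p = 0.25 over 5 measures). Leaving out each library gave 0.75 to 0.81, leaving out chromosome 6 gave 0.74, and the first and last 25% of each autosome gave 0.67. WT libraries had 0.07 ± 0.01, QKO libraries 0.39 ± 0.04, WT IGG libraries 0.13 ± 0.02 and WT LMNB1 libraries 0.02 ± 0.04.

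The pattern was present within each LMNB1 class: the genes beyond 80 Mb had a higher median difference than the genes within 20 Mb, by 0.42, 0.66, 0.80 and 0.66 from the class with least to the class with most LMNB1. Within the 6 GC classes the gap was 0.52 to 0.74, and among protein-coding genes it was 0.69. On 18 of 19 autosomes the median of genes beyond 20 Mb was above that of genes within 20 Mb. Chromosome 9 had the widest gap, from -0.58 to 0.24, and chromosome 7 went from -0.81 to -0.01. Chromosome 17 was the exception, with -0.06 within 20 Mb and -0.27 beyond.

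Whole chromosomes also differed. Chromosome 6, which the methods name as trisomic in some WT cells, had the highest median difference, 0.48. It had 1831 of 4101 genes higher in LBRKO and 128 higher in TKO. It held 8.31%, 8.33% and 8.27% of the signal over genes in the LBRKO libraries and 5.88%, 5.80% and 5.86% in the TKO libraries, which do not overlap. WT libraries had 6.40% to 6.53%, between the 2 genotypes. Chromosome 17 had the lowest median, -0.24, with 326 genes higher in LBRKO and 875 higher in TKO. Chromosome 8, which the methods name as trisomic in TKO and in some WT cells, had a median of -0.04. It held 6.73%, 6.99% and 6.88% of the signal in LBRKO against 7.16%, 7.33% and 7.18% in TKO, which do not overlap, and 6.92% to 6.98% in WT. Its median signal per bin was 0.280 in LBRKO, 0.280 in TKO, 0.279 in WT and 0.304 in WT IGG. Over all genes these medians were 0.201, 0.193, 0.209 and 0.208. On chromosome 6 they were 0.287, 0.196, 0.258 and 0.227. Chromosome Y held 0.128%, 0.136% and 0.116% of the signal in LBRKO, against 0.217%, 0.200% and 0.223% in TKO and 0.199% to 0.224% in WT. IGG libraries were analysed here in WT cells only, so chromosome copy number and LAP2B contact cannot be told apart here.

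**Figure D3:**
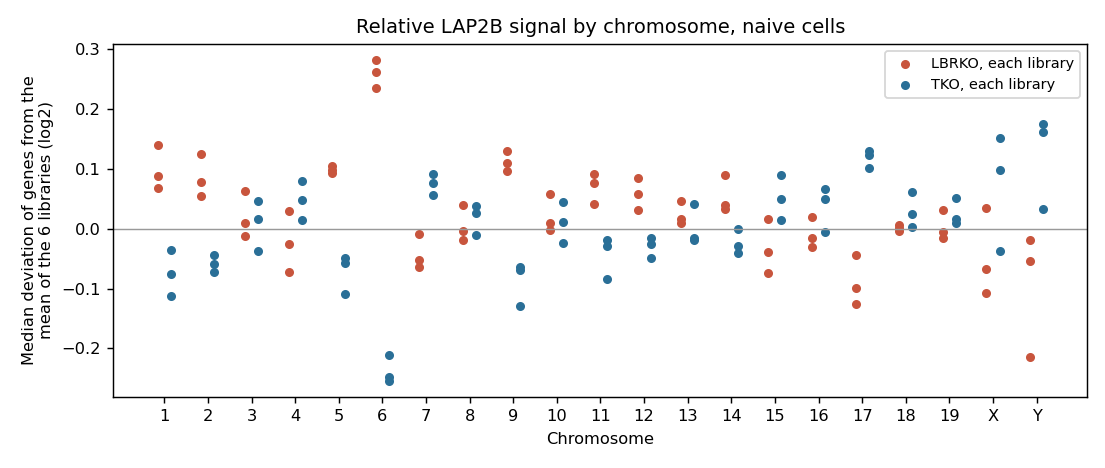
Median deviation of the genes of each chromosome from the mean of the 6 libraries (log2, relative scale), 1 point per library. The LBRKO points for chromosome 6 lie between 0.24 and 0.28 and the TKO points between -0.25 and -0.21, the widest separation of any chromosome.

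Differences were often shared by neighbouring genes. Among 2564 windows of 1 Mb with 5 or more genes, 416 had a median above 0.5 and 402 a median below -0.5. The highest was the distal end of chromosome 6 (148000001 to 149000000, GRCm39), where all 39 genes were higher in LBRKO, with a median of 2.00. It was followed by a window on the same chromosome around Prickle2 and Adamts9 (92000001 to 93000000, 19 of 19 genes, median 1.73) and by one on chromosome 5 around Brca2 and Pds5b (150000001 to 151000000, 34 of 34 genes, median 1.56). The lowest were a window on X (25000001 to 26000000, 10 of 10 genes higher in TKO, median -1.59) and the first gene-bearing windows of chromosome 9 (3000001 to 4000000, 17 of 17 genes, median -1.56, and 4000001 to 5000000, 15 of 15 genes, median -1.54).

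Of the protein-coding genes that were named by size of difference, all 10 that were higher in LBRKO start beyond 80 Mb, where 44.2% of autosomal genes lie. Ipo8, a nuclear import receptor at the end of chromosome 6 (148672181 to 148733092), led them. Values of single genes here and below are sums over their bins, not divided by length. The relative signal of Ipo8, which touches 62 bins, was 112, 78.6 and 92.6 times the median gene in LBRKO and 18.0, 15.1 and 18.1 times in TKO. The LBRKO libraries were far above all TKO libraries, by 2.45 ± 0.11 (SE, log2, limma adjusted p = 2.11e-24), and by 3.26 on the spike-in scale. WT libraries averaged 34.9.

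Med13, a subunit of the Mediator kinase module on chromosome 11, had 72.1, 43.4 and 53.9 in LBRKO and 13.6, 11.3 and 13.6 in TKO. The difference was 2.11 ± 0.12 (SE, limma adjusted p = 6.79e-20), and WT, at 15.3, was near TKO. Brca2, which acts in homologous recombination, had 46.6, 30.1 and 38.5 in LBRKO and 9.39, 8.45 and 9.73 in TKO, and WT lay between them. Mrpl48, a mitochondrial ribosomal protein on chromosome 7, had 52.8, 40.8 and 46.9 against 12.8, 10.7 and 11.8, with WT at 12.0 and QKO at 25.5. In each of these genes the lowest LBRKO library was far above the highest TKO library.

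The other genes of this group were Atrn (a membrane glycoprotein, difference 2.04), Ap1g1 (a subunit of the AP-1 clathrin adaptor, 2.02), Kif15 (a mitotic kinesin, 2.01), Far1 (a reductase of ether lipid synthesis, 2.00), Fgfr1op2 (1.97) and Ankrd26 (1.96). Their spike-in scale differences were 2.76 to 2.85. None of them lay in the class with least LMNB1. All 10 genes kept their call in every alternative that was run.

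**Figure D4:**
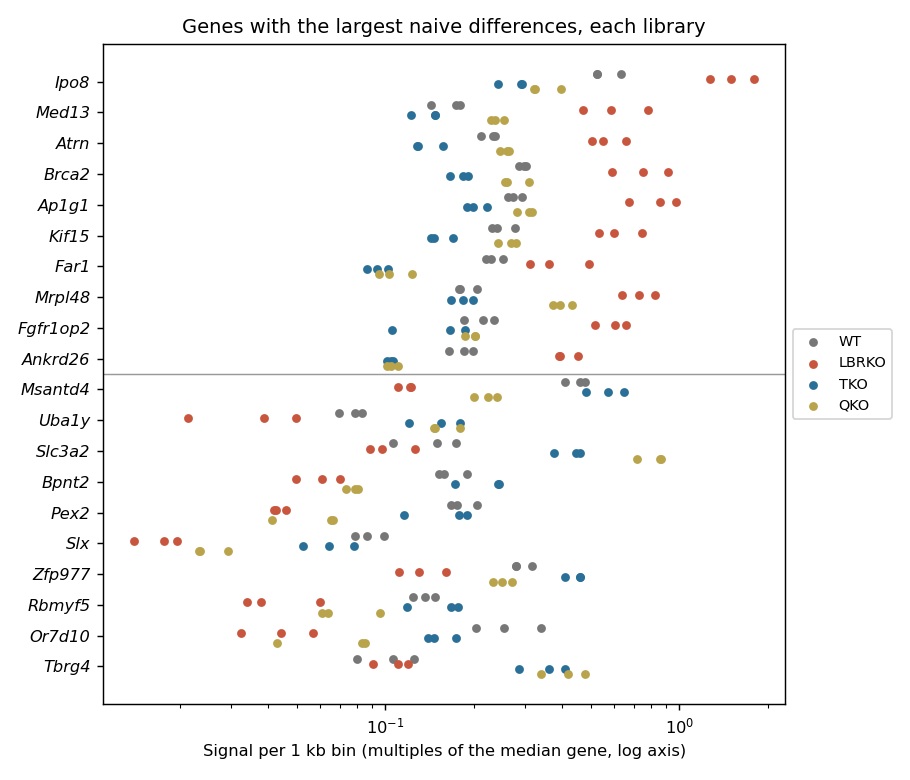
Signal per 1 kb bin of the 20 named genes (multiples of the library's median gene, log axis), each LBRKO, TKO, WT and QKO library as a point in its genotype's colour, the 10 genes higher in LBRKO above the line and the 10 higher in TKO below it. LBRKO points are to the right of all TKO points above the line and to their left below it.

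Of the 10 genes higher in TKO, 7 were autosomal and 6 of these start within 20 Mb, where 11.1% of autosomal genes lie. Msantd4 (chromosome 9, 4376534 to 4386892) had 6.32, 5.30 and 7.13 times the median gene in TKO and 1.34, 1.34 and 1.22 in LBRKO. The difference was -2.17 ± 0.16 (SE, limma adjusted p = 4.01e-16), it was -1.40 on the spike-in scale, and WT, at 4.93, was nearer to TKO. Slc3a2, the heavy chain of an amino acid transporter on chromosome 19, had 8.30, 8.03 and 6.78 in TKO and 1.60, 2.28 and 1.76 in LBRKO, a difference of -1.99. Here WT, at 2.58, was near LBRKO, and QKO, at 14.7, was above TKO.

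Pex2, which acts in peroxisome assembly, had 4.75, 2.90 and 4.45 in TKO and 1.15, 1.05 and 1.06 in LBRKO. Bpnt2, a Golgi phosphatase, had 12.1, 8.65 and 12.2 in TKO and 2.48, 3.51 and 3.06 in LBRKO. The other autosomal genes were Zfp977 (a zinc finger gene, difference -1.69), Or7d10 (an olfactory receptor, -1.65) and Tbrg4 (a mitochondrial RNA-binding protein, -1.65). On the sex chromosomes they were Uba1y (a ubiquitin-activating enzyme on Y, -1.99), Rbmyf5 (-1.66) and Slx (-1.70). Rbmyf5 and Slx belong to multicopy families whose reads can be split between copies, so their values are uncertain. All 10 were higher in TKO on the spike-in scale too, with differences of -1.40 to -0.87, although that call was lost for Slx, Rbmyf5 and Tbrg4 without LBRKO replicate 1 and for Rbmyf5 and Tbrg4 without TKO replicate 2. Applying the spike-in factor to reads left the call only at Msantd4, Uba1y and Slc3a2.

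The genes of the deleted proteins themselves differed in both directions. Lbr had 7.61, 7.26 and 8.71 times the median gene in LBRKO and 6.91, 4.88 and 5.90 in TKO. The groups did not overlap and the difference was 0.42 ± 0.14 (SE, limma adjusted p = 0.0118), but it did not pass without TKO replicate 2 (adjusted p = 0.116) or LBRKO replicate 3 (limma adjusted p = 0.08), nor after division by the mean gene (0.21). Lmna had 6.40, 8.23 and 9.84 in LBRKO and 37.8, 10.8 and 9.66 in TKO. TKO replicate 1 stood apart, the groups overlapped, and the difference of -0.97 shrank to -0.34 without that library (limma adjusted p = 0.177). The call was also lost with no filter on low values. At Lmna the QKO libraries had 52.0, 28.6 and 39.5, and the WT libraries 9.56, 4.16 and 7.04. Lmnb2 had 2.62, 3.90 and 2.57 in LBRKO and 4.36, 5.25 and 5.07 in TKO (difference -0.69, limma adjusted p = 0.000979). Lmnb1 (0.51) and Tmpo (0.59), the gene of LAP2B, were higher in LBRKO with no overlap. These values are LAP2B coverage of the loci and do not measure their products. The lamin genes in TKO and Lbr in LBRKO were altered at the DNA level, and the part of this in the values was not tested.

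Of the 22 genes of the nuclear lamina and inner nuclear membrane, 10 were higher in LBRKO, 6 higher in TKO and 6 did not pass (21.5% and 15.9% of all genes, 29.9% and 21.3% of protein-coding genes, were higher in LBRKO and TKO), with a median of 0.03, equal to that of all genes (-0.17 after division by the mean gene, with 7 higher in LBRKO and 8 in TKO). Tor1aip1, which encodes LAP1, had the largest difference (1.70, limma adjusted p = 7.93e-16), with 21.5, 15.2 and 19.9 times the median gene in LBRKO and 5.86, 6.35 and 4.97 in TKO. Lemd2, a LEM-domain protein, was the lowest (-0.97), and its groups overlapped. Of 23 genes of H3K9 methylation and HP1, 9 were higher in LBRKO and 5 higher in TKO (7 and 9 after division by the mean gene). Setdb2, a SET-domain protein, was higher in LBRKO (1.48), and Trim28, the corepressor that KRAB zinc finger proteins recruit, was higher in TKO (-1.39).

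Developmental lists showed no common direction. Over all genes 21.5% were higher in LBRKO and 15.9% higher in TKO, and over protein-coding genes 29.9% and 21.3%. After division by the mean gene the medians of the primed and gastrulation lists turned negative (-0.11 and -0.06). Primitive endoderm then had 3 genes higher in LBRKO and 5 in TKO. Of 15 naive pluripotency genes 3 were higher in LBRKO and 4 in TKO (median -0.15), led by Fgf4 (0.62) and Klf2 (-1.19). Of 16 genes of the primed epiblast, 1 was higher in LBRKO, the DNA methyltransferase gene Dnmt3b (0.87), and 4 in TKO, led by Etv5 (-0.62). Of 18 primitive endoderm genes 7 were higher in LBRKO and 3 in TKO, with a median of 0.25. Of 19 genes of gastrulation and mesoderm 7 were higher in LBRKO, led by Mixl1 (0.98), and 2 in TKO, led by Hand2 (-0.76), whose groups overlapped and whose call was lost without LBRKO replicate 1 or 2 or TKO replicate 3. Of 17 neural genes 2 were higher in LBRKO, led by Emx2 (0.75), and 6 in TKO, led by Pou3f2 (-1.09).

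Of 24 germline genes 12 were higher in LBRKO, against 21.5% of all genes and 29.9% of protein-coding genes. The list had 2 genes higher in TKO and a median of 0.37 (0.17 after division by the mean). Brdt, a testis bromodomain protein, led those higher in LBRKO (1.45), and Tex101 was the lowest (-0.997). The Pramel genes, a clustered family active in germline and early embryo, were higher in LBRKO at 22 of 52 members and higher in TKO at none (median 0.41, and 0.21 after division by the mean, which gave 3 higher in TKO). Pramel46 had the largest difference (1.09), but its groups overlapped and its call was lost without TKO replicate 3. Members of such families share sequence, so values of single members are uncertain, and as clustered neighbours they are not separate observations. Keratin genes had 10 of 54 higher in LBRKO, a share below that of all genes, and none higher in TKO, led by Krt222 (0.98), with 3 higher in LBRKO after division by the mean gene.

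Several large families had more members higher in TKO than the 15.9% of all genes and the 21.3% of protein-coding genes. Clustered protocadherins, adhesion proteins of neurons, had 41 of 58 members higher in TKO and none higher in LBRKO (median -0.60), with Pcdhb17 the lowest (-0.996). Neighbouring genes often differed together, so clustered members such as these are not separate observations. Vomeronasal receptors of type 1 passed the filter on low values at 148 of 230 genes, of which 80 were higher in TKO and 8 in LBRKO (median -0.64). Type 2 passed at 111 of 122, of which 72 were higher in TKO and 8 in LBRKO (median -0.60). The filter used the mean over all 36 libraries, with LMNB1 and IGG in WT cells among them. The counts of type 1 therefore cover only the members with enough signal in some of these libraries. The extremes were Vmn1r73 (-1.35) and Vmn1r45 (0.88), Vmn2r44 (-1.25) and Vmn2r84 (0.79). The call of Vmn1r45 was lost without TKO replicate 2. On the spike-in scale no tested member of these families was higher in TKO. There 2 protocadherins, 23 type 1 and 24 type 2 receptors were higher in LBRKO, against 53.5% of all genes.

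Receptors of taste and smell were less uniform. Olfactory receptors of class II had 260 of 1016 tested higher in TKO and 27 in LBRKO (median -0.32; 419 and 9 after division by the mean gene), from Or7d10 at -1.65 to Or13a1 at 1.05. Class I had 10 and 2 of 133 tested (median -0.12), fewer in both directions than the shares of all genes (15.9% and 21.5%), and 29 and 2 after division by the mean gene, with Or52e19 (-0.91) and Or52b2 (0.87) at the ends, and the latter lost its call without TKO replicate 2. Bitter taste receptors had 5 of 34 higher in LBRKO and none in TKO (median 0.35, led by Tas2r123 at 1.53; 1 and 1 after division by the mean gene), and killer cell lectin-like receptors had 9 and 3 of 27 (Klrc2 1.65, Klra5 -0.65), with a median of 0.17 that became -0.04 after division by the mean gene. Klrc2, Tas2r123, Or13a1 and Vmn1r45 lie on chromosome 6, as does Klra5, which differed in the other direction. On that chromosome 44.6% of all genes were higher in LBRKO and 3.12% higher in TKO, with a median of 0.48. The part of this in the family counts was not tested.

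Ribosomal protein genes had 33 of 80 higher in TKO and 4 in LBRKO (median -0.46), with Rpl13a (-1.56) and Rps27l (0.95) at the ends. Of all genes 15.9% were higher in TKO and 21.5% in LBRKO, and of protein-coding genes 21.3% and 29.9%. Only 24 of 68 replication-dependent histone genes passed the filter on low values, 17 of them higher in TKO and 1 in LBRKO. Those that passed had a median level per bin of 0.463 in TKO and 0.782 in QKO against 0.153 in LBRKO and 0.173 in WT, so members may have passed through the groups where they are high and nothing is read from this count. H4c9 had -2.30 and H4c16 0.63. The groups overlapped at H4c16, whose call was lost without LBRKO replicate 1 or 3 or TKO replicate 2. Cytochrome P450 genes of families 2 to 4 had 35 of 77 higher in TKO and 7 in LBRKO (Cyp2t4 -1.16, Cyp3a13 1.32). Zinc finger genes named Zfp (372 tested) split into 99 higher in LBRKO and 125 in TKO, and into 63 and 171 after division by the mean gene. Zfp105 reached 1.93 and Zfp977 -1.69, and the 39 members in the first 20 Mb had a median of -0.82 against -0.01 elsewhere.

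The remaining lists were mixed or mostly uncalled, and several leaned to TKO after division by the mean gene. The background was 21.5% of all genes higher in LBRKO and 15.9% in TKO, or 29.9% and 21.3% of protein-coding genes. Hox genes had 7 of 39 higher in LBRKO and 2 in TKO (Hoxa6 1.09, Hoxb4 -0.82), but 5 and 6 after division by the mean gene. Serpin clusters had 4 and 6 of 51 (Serpina3f 0.81, Serpinb6c -0.73; 1 and 16 after that division), defensins 3 and 3 of 70 (Defb19 1.01, Defa38 -0.76; 2 and 9), and keratin-associated proteins 7 and 6 of 94 (Krtap1-4 1.56, Krtap6-2 -1.05; 2 and 11 after division by the mean gene). Neuronal adhesion genes had 11 and 22 of 57 (Nlgn3 0.81, Slitrk3 -1.01; 4 and 34 after division by the mean gene), and microRNA genes 82 and 74 of 920 (Mir761 1.63, Mir5136 -1.61; 44 and 136 after division by the mean gene). The groups overlapped at Hoxb4 and Defa38. Hoxb4 lost its call without TKO replicate 1 or 2 or LBRKO replicate 3 (-0.35 without the last), and Defa38 without replicate 1 of either genotype, TKO replicate 2 or LBRKO replicate 3 (-0.57 without the last).

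Transposable elements (TEs) were read as the mean signal over the copies of each family. Of 1241 families 1149 (92.6%) passed the test on the spike-in scale. Of all families 1147 (92.4%) were higher in LBRKO on the spike-in scale and 2 (0.161%) higher in TKO. Relative to the median family, 742 (59.8%) passed, 282 higher in LBRKO (22.7%) and 460 higher in TKO (37.1%), and groups did not overlap at 772 (62.2%), LBRKO being above at 296 (23.9%) and TKO at 476 (38.4%). Division by the mean family turned this split to 945 and 50 and division by the median gene to 536 and 198, with the median of all families at 0.39 and 0.12 in place of -0.03, so TE directions hold relative to other families only.

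Endogenous retroviruses of the ERVK group were mostly higher in TKO relative to other families. Of their 285 families, 232 were higher in TKO and 2 in LBRKO, against 37.1% and 22.7% of all families. The split reversed to 36 and 136 after division by the mean family and was 115 and 24 after division by the median gene. Relative to the median family they had a median of -0.23 (-0.08 after division by the median gene and 0.19 after division by the mean family, each still below the median of all families). All 25 IAP families, which are young and active in mouse, were higher in TKO (median -0.58), as were all 3 ETn and MusD (-0.71), all 21 ERVB (-0.51) and all 5 MMERVK families (-0.68). IAP, ETn, ERVB and MMERVK kept a negative median under both other scalings. The 8 satellite families had a lower median than ERVK (-0.30), with 4 higher in TKO and none in LBRKO, against 37.1% and 22.7% of all families. After division by the mean family 3 were higher in TKO and 4 in LBRKO (median 0.07), and after division by the median gene 4 and 2 (median -0.17). The name groups were chosen after the values had been seen.

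L1 elements split by subfamily, against the same shares of all families. All 7 L1MdA, 3 L1MdTf, 2 L1MdGf and 7 L1MdF families, the young L1 of mouse, were higher in TKO (medians -0.35, -0.51, -0.50 and -0.36), and so were all 21 Lx families (-0.32). The L1M families, which are old and shared among mammals, were higher in LBRKO at 38 of 60 and higher in TKO at none (median 0.10). After division by the mean family, which moved the whole table up, L1MdA had a median of 0.07, Lx 0.10 (5 families higher in LBRKO, none in TKO), L1MdTf and L1MdGf -0.07 and L1M 0.51. Of the L1MdA, L1MdTf, L1MdGf and L1MdF families 2, both L1MdA, were then higher in TKO, and all 60 L1M families were higher in LBRKO. WT had 1.73 times the median family at L1MdA, TKO 1.51 and LBRKO 1.19.

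SINEs, the short elements that lie in gene-rich chromatin, were higher in LBRKO at 28 of 34 families and higher in TKO at none, against 22.7% and 37.1% of all families, with a median of 0.12. DNA transposons of the hAT-Charlie group were higher in LBRKO at 56 of 80 families and those of the TcMar-Tigger group at 28 of 57, with 3 families of each group higher in TKO. The medians of SINEs (0.12), hAT-Charlie (0.11) and TcMar-Tigger (0.07) were smaller in size than that of ERVK (-0.23). Those of ERVL (-0.02) and ERVL-MaLR (0.004) were smaller still, and ERV1 had -0.11. After division by the mean family the order turned, with 0.54, 0.53 and 0.48 against 0.19 for ERVK. After division by the median gene it was 0.27, 0.26 and 0.22 against -0.08. The highest family of 100 or more copies was MER21-int (0.36), which had 1.34, 1.28 and 1.41 times the median family in LBRKO and 1.04, 0.99 and 1.02 in TKO. It was followed by Tigger16b (0.23), MER112 (0.23), Charlie20a (0.21), L1ME3B (0.21), Tigger18a (0.21), MER104 (0.20) and Charlie9 (0.20).

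**Figure D5:**
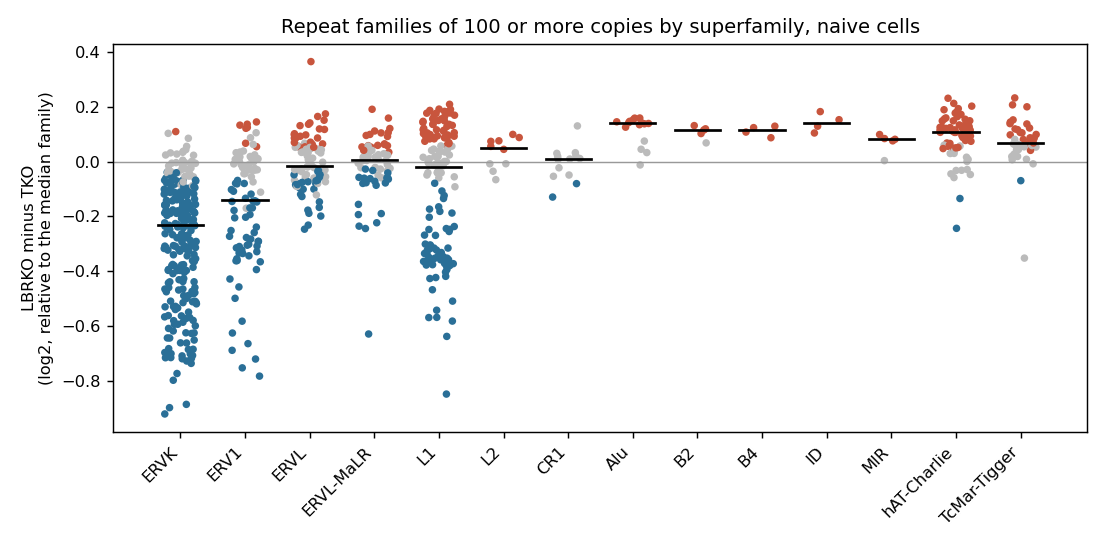
LBRKO minus TKO difference (log2, relative to the median family) of TE families of 100 or more copies by superfamily, each point a family, red where higher in LBRKO, blue where higher in TKO, grey where the test was not passed, lines for medians. ERVK families reach down to -0.92 and L1 families fall into a group above and a group below 0.

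At the other end FordPrefect, a DNA transposon with 270 copies, had 4.19, 5.40 and 4.80 times the median family in TKO and 1.12, 1.38 and 1.22 in LBRKO (-1.87). It also had 10.6 in the WT IGG libraries, which carry no LAP2B antibody, and the part of background in its difference was not tested. IAPEz-int, the internal part of an IAP, had 2.58, 2.72 and 2.70 in TKO and 1.31, 1.78 and 1.42 in LBRKO (-0.80, limma adjusted p = 1.09e-06). L1MdA_I had 4.73, 4.67 and 4.70 in TKO and 2.59, 2.71 and 2.41 in LBRKO (-0.85, limma adjusted p = 2.25e-09). MMERVK9C_I had 2.10, 1.77 and 2.15 against 1.02, 1.01 and 1.06 (-0.90). Relative to the median family the groups were far apart in all of these. On the spike-in scale FordPrefect was still higher in TKO (-0.93). There the groups overlapped at L1MdA_I (0.10), MMERVK9C_I (0.01) and IAPEz-int (0.13), and none of these passed the test. WT IGG libraries averaged 3.81 at L1MdA_I, above the LBRKO values and near the WT LAP2B mean of 3.85, and 2.74 at IAPEz-int, above the 3 TKO values. At MMERVK9C_I they averaged 1.34. The part of background in these differences was not tested. The remaining families were IAPEY5_I (-0.92), ERVB4_1-I_MM (-0.89), RLTR6-int (-0.78) and ERVB2_1A-I_MM (-0.77). None of these remaining families passed the test on the spike-in scale.

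WT libraries, which took no part in the contrast, were on the relative scale more often nearer to TKO at the genes that differed. In level on the spike-in scale WT (log2 mean 3.66) was instead nearer to LBRKO (3.73) than to TKO (2.71). No share over all genes or families was computed beside the shares below. On the relative scale the WT mean was nearer to TKO than to LBRKO at 9814 of 15134 genes higher in LBRKO (64.8%) and at 6359 of 11158 genes higher in TKO (57.0%). For TE families it was nearer to TKO at 247 of 282 (87.6%) and at 343 of 460 (74.6%). QKO was nearer to TKO at 65.6% of the genes higher in LBRKO and at 46.5% of those higher in TKO, and for TE families at 35.5% and 42.0%.

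The contrast between the tethers differed between stages for part of the genes. The paper did not rely on LAP2B in mutant EpiLCs, because in WT EpiLCs it also gave signal outside the domains that LMNB1 marks. The rank correlation of WT LAP2B with naive WT LMNB1 averaged 0.82 ± 0.04 in naive cells and 0.44 ± 0.13 in EpiLCs. A change in contact and a change in what LAP2B marks cannot be told apart here. The difference between the stages passed at 7615 genes (10.8%) and at 489 TE families (39.4%). The naive minus EpiLC value was positive at 4619 of these genes (6.56%) and negative at 2996 (4.26%), and at TE families it was positive at 139 (11.2%) and negative at 350 (28.2%). LBRKO EpiLC libraries had a position contrast of 0.50 ± 0.03 and TKO EpiLC libraries 0.11 ± 0.01, so the order of the genotypes was as in naive cells, and the change of this gap with stage was not tested. Chromosome 6 kept a median difference of 0.47 in EpiLCs. Ipo8 had 2.29 in EpiLCs against 2.45 in naive cells, whereas Msantd4 had -0.39 against -2.17 (difference of the differences -1.78, limma adjusted p = 6.69e-07).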

How the data were processed

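CUT&RUN libraries of naive LBRKO and TKO mES cells (3 each) were compared. Read pairs had been mapped by the authors to mm39 and to yeast (sacCer3), who kept proper primary pairs, removed duplicates and computed binned coverage as RPKM times a spike-in factor; the submitters' processing notes name Bowtie2 2.3.5.1, SAMtools 1.10 and deepTools. The deposited signal of a gene or TE copy is the sum of these values over the 1 kb bins it touches, not divided by length, and the 1 kb width of the TE bins was inferred from the values, whereas the study's methods name wider bins for TEs, so the bin width behind TE values is uncertain. A modified z score table that the authors also deposited was not used. Whole reads were recovered from the gene signal (100% of values within 0.05 of a step).

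TE values were averaged over the copies of each family. Coordinates came from GENCODE M39 (78131 of 78202 genes). limma 3.58.1 was fitted to log2(value + 0.1 of the median) of all LAP2B libraries as 8 group means with a trended prior. The lowest 0.1 of genes by mean over all 36 libraries were left out first. Fold changes of low genes are understated. Spike-in scale values are as deposited, and relative values are divided by the library's median gene or family. Signal levels of classes of genes, and those in the figure of named genes, are per bin. The values printed for single genes are sums over their bins. 5 per-library measures were compared by exact permutation (two-sided, 20 assignments). edgeR 4.0.16 was the alternative on recovered reads. On simulated data limma called 92.4% of 66 genes changed by 2, 39.4% of 66 by 1 and 7.35% of 68 by 0.5 (log2), and 0.00712% of 70181 unchanged genes. Far fewer genes were changed there than were called in the data, so these shares need not hold for the data. Replicates differed by more than counting error (chi-square per degree of freedom 3.56 to 9.32).

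Genes were named by a rule: the 10 protein-coding genes of 10 or more bins with the largest called difference in each direction, without overlap of the libraries, at most 1 within 2 Mb, leaving out symbols of the form Gm plus digits or ending in Rik; the called extremes of 27 gene lists (those of the primitive endoderm list are not reported here); the genes of the lamins, Lbr and Tmpo; 8 TE families of 100 or more copies per direction; and 3 windows per direction. The comparison and the lists were chosen with earlier results of these data known. The position measure and the TE name groups were chosen after the values were seen.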

Additional observations from a re-analysis of the deposited data

Results flagged for a closer look

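The difference between LBRKO and TKO itself differed between naive cells and EpiLCs (interaction term of limma on the relative scale, adjusted p under 0.05) at 40 of 88 genes and TE families named here, against 10.8% of all genes and 39.4% of all TE families. Most of the 88 were named for a large naive difference, which enters this value, so their count and signs follow in part from that choice and support nothing. Values below are the naive difference minus the EpiLC difference on the log2 scale, with 3 libraries in each of the 4 groups. The limit given above for LAP2B as a readout in EpiLCs applies to all of them.

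Among genes the value was positive at Med13 (0.52), Atrn (0.77), Brca2 (0.66), Ap1g1 (0.87), Kif15 (1.04), Mrpl48 (0.97), Ankrd26 (1.22), Tor1aip1 (0.90), Dnmt3b (1.27), Mixl1 (1.38), Brdt (0.73), Zfp105 (1.40), Krtap1-4 (1.88), Serpina3f (0.98) and Defb19 (1.40). Of these, Dnmt3b had -0.40 in EpiLCs and 0.87 in naive cells, and Mixl1 went from -0.41 to 0.98. Defb19 (-0.39), Krtap1-4 (-0.32) and Serpina3f (-0.17) also had negative differences in EpiLCs.

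The value was negative at Msantd4 (-1.78), Uba1y (-1.10), Slc3a2 (-1.14), Bpnt2 (-0.95), Pex2 (-1.34), Zfp977 (-1.05), Rbmyf5 (-1.22), Tbrg4 (-0.95), Trim28 (-0.93), Or52e19 (-1.58), Vmn1r73 (-0.64), H4c9 (-1.40) and Rpl13a (-0.86). Or52e19 had 0.67 in EpiLCs and -0.91 in naive cells.

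Among TE families it was positive at Tigger16b (0.13), MER112 (0.14), Charlie20a (0.14), Tigger18a (0.18) and MER104 (0.18). It was negative at FordPrefect (-0.99), IAPEY5_I (-0.44), MMERVK9C_I (-0.68), ERVB4_1-I_MM (-0.47), L1MdA_I (-0.62), RLTR6-int (-0.33) and ERVB2_1A-I_MM (-0.70). For ERVB2_1A-I_MM the EpiLC difference was -0.07 against -0.77 in naive cells. The check for 1 outlying sample within a group was not applied, since every group has 3 libraries.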

How the results depend on the processing

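Direction was kept by level, lamina contrast, rank correlation with IGG and position contrast in all alternatives run for them. Leaving out each library gave differences of 0.88 to 1.21 for level, 0.04 to 0.25 for lamina contrast and -0.09 to -0.03 for the correlation with IGG. The correlation with LMNB1 ranged from -0.083 to 0.013 and turned sign without LBRKO replicate 2 or TKO replicate 1 or 3. On the relative scale calls ranged from 21971 to 24851 of genes and 662 to 729 of TE families without 1 library, and on the spike-in scale from 28382 to 43587 and from 1012 to 1192.

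Restriction to genes of 10 kb or longer, which tests fewer genes, gave 19148 calls on the spike-in scale and 15645 on the relative scale. Applying the spike-in factor to reads gave 61342 genes, 73 of them higher in TKO. Genes higher in TKO on the spike-in scale numbered 322 with only the 6 libraries and 173 among the longer genes. Among the TE families with a stage difference, 87 were positive without TKO replicate 3 in place of 139. On the spike-in scale Lmna ranged from -0.56 to 0.30 without 1 library and was 0.50 with the factor on reads, and Lmnb2 ranged from -0.14 to 0.34; the cause was not tested. Dividing by the mean gene moved all chromosome medians, to -0.016 (1), -0.068 (2), -0.19 (3), -0.28 (4), -0.042 (5), 0.29 (6), -0.32 (7), -0.23 (8), -0.0082 (9), -0.18 (10), -0.10 (11), -0.12 (12), -0.19 (13), -0.14 (14), -0.29 (15), -0.26 (16), -0.42 (17), -0.23 (18), -0.21 (19), -0.32 (X), -0.35 (Y). Classes by LMNB1 over IGG gave 0.21 in the second class.

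Whether replicate numbers pair the samples was not settled, and the main fits took no account of them. Deviations of same-numbered libraries had correlations of 0.08, 0.12 and 0.02, and those of libraries with different numbers -0.12 to 0.06. With the replicate block, fitted to the 6 libraries, 26227 genes and 628 TE families passed on the relative scale, against 23159 and 637 without it. On the spike-in scale 37087 and 1129 passed, against 33725 and 1132 without it. The block within stage gave 7520 genes and 492 TE families with a stage difference, against 7615 and 489. Changes of 0.5 (log2) were rarely called on simulated data, in which few genes were changed. Which of depth, replicate spread, the number of libraries and the few changed genes limits this was not tested. With 3 libraries per group no exact permutation test can go below p = 0.1.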
